A study of Mus musculus with 6 samples.

Results

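Interferon-stimulated genes are switched on in almost any cell that senses interferon, and they are followed here in RPE/choroid, tissue that holds the retinal pigment epithelium (RPE) and the blood vessel layer it rests on. The set was defined by name as 48 interferon-induced genes, and all 48 were found among the 33924 gene symbols of the table. Libraries came from 3 young and 3 aged C57BL/6J mice, a wild-type inbred strain that received no treatment. The labels give 1 to 2 months for the young mice, whereas the methods of the study name older young mice, and they give the aged mice as 20 to 24 months in the titles and 22 to 24 months in the time field. All mice are labelled male although the methods name both sexes. The titles number the mice, so the libraries are separate animals, and the methods state 2 eyes per sample. Total RNA was sequenced once ribosomal RNA had been depleted.

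A DESeq2 comparison made by the authors supplied every value. It gives summaries per gene and none per mouse, so the spread between mice enters only through the standard error (SE) of each fold change. Each gene has a mean normalized count over the 6 libraries and a log2 fold change, given here as aged over young. The table does not name the direction of its fold change. It was read from the numbers of genes that the study counts as higher and lower, and every direction below rests on that reading. A gene is said to have risen or fallen where the deposited adjusted p is under 0.05. For such a gene the fold change was large beside its SE under that model. Depth per library is unknown here. Group levels were worked out from the mean and the fold change and are called implied levels. They are in normalized counts, have no error of their own, and are too close together, most of all for low genes, because the fold changes were shrunken towards 0, as read from SEs that stay small at the lowest means.

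Interferons act through a short relay. Type I interferons bind the receptor made of IFNAR1 and IFNAR2 and, through the kinases JAK1 and TYK2, activate a complex with STAT2 and IRF9 among its subunits that binds the interferon-stimulated response element. Interferon-gamma, the type II interferon made mainly by T and NK cells, binds IFNGR1 and IFNGR2 and acts on genes through gamma-activated sites. Many of the induced proteins restrict viruses or intracellular microbes, and macrophages, vessels and epithelia of the eye can all make them.

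Most of these genes were more abundant in the aged tissue. Of the 48 genes, 47 had an adjusted p, and 33 of them rose, 1 fell and 13 did not pass the threshold. Among all 18636 genes tested, 11.3% rose and 9.92% fell, 21.2% in all. The median log2 fold change was 0.63 over the 47 genes and -0.01 over all genes tested. The fold change was above 0 for 43 of the 47, against 49.5% of all genes tested.

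Other rules for a call gave these counts, each set beside its own background. At an adjusted p under 0.01, 26 rose and 1 fell, against 7.76% and 5.76% of all genes (13.5% either way). With an added minimum of 1 for the size of the log2 value, 9 rose and 1 fell, against 3.65% and 4.62% (8.27% either way). Without a filter on low genes, 32 rose and 1 fell, against 7.28% and 6.22%, and with a mean of at least 30, 33 rose and 1 fell, against 13.2% and 10.2% (23.4% either way). When genes lacking a p-value were given one from their fold change and SE, 34 rose and 1 fell, against 11.3% and 9.99% (21.3% either way). Abundant genes had a median of 0.06, and after centring on them 29 rose and 1 fell, against 8.85% and 12.3% (21.1% either way), and 42 of the 47 had a value above 0.

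The rises were moderate in size. Among the 33 genes that rose, log2 fold changes ran from 0.43 to 2.02 with a median of 0.83. Of these, 9 had a log2 value of 1 or above, 21 lay between 0.5 and 1, and 3 lay under 0.5. All 48 genes were expressed, with mean normalized counts from 54.9 for Oasl1 to 5965 for Rnf213, and 44 of the 48 had at least 100. The largest rises and the single fall stood clear of 0 at intermediate abundance in the plot of all genes tested.

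**Figure D1:**
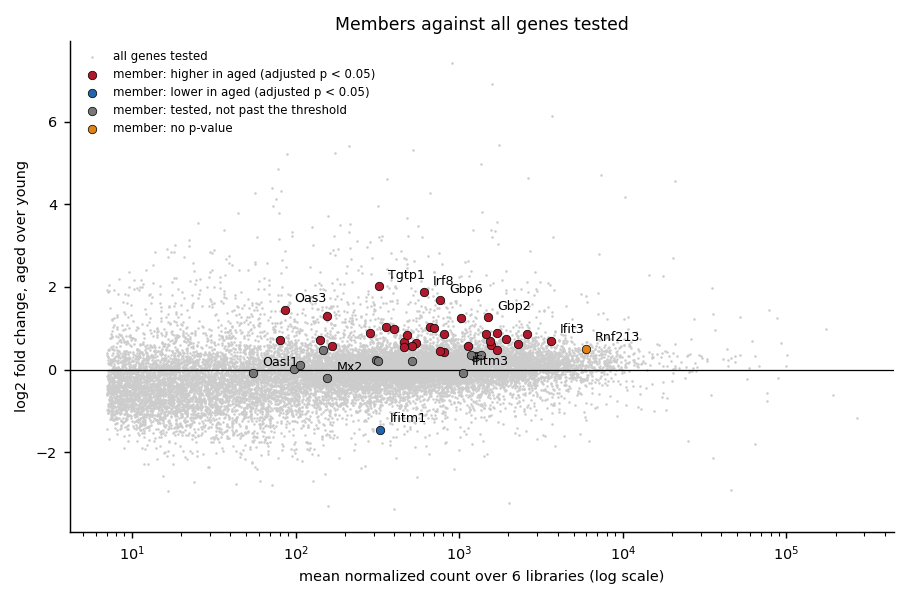
The mean normalized count over the 6 libraries (log scale) is plotted against the log2 fold change, aged over young, for all genes tested (grey) and for the 48 interferon-stimulated genes (large points, coloured by call). Of the large points, 33 are red and above 0, 1 (Ifitm1) is blue at -1.45, and Rnf213, which has no p-value, is orange.

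Most markers of macrophages and of T and NK cells moved in the same direction in these libraries. Over all genes tested, 11.3% rose and 9.92% fell. Of 15 macrophage markers, 14 were tested, 11 rose and 1 fell, and their summed implied level was 19820 in young and 109365 in aged mice. Cd68 rose most, by 3.37 (SE 0.14), and Cd163 fell by 2.34 (SE 0.24). Lyz2, the most abundant of them, had a log2 fold change of 4.09 (SE 0.17) and no p-value. Lyz2 carried most of that sum, which was 15546 in young and 36498 in aged mice over the other 14 markers. Of 16 T and NK cell markers, 11 of 15 tested rose, with Cd4 highest at 2.41 (SE 0.23), and their summed implied level was 632 in young and 1344 in aged mice, or 556 and 938 without Cd4 and 254 and 897 without Thy1, which other cells also express. None of the markers on these lists stood at 0.

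Markers of other immune cells were also present. Of all genes tested, 11.3% rose and 21.2% passed the threshold in either direction. Of 8 neutrophil markers, 4 of 6 tested rose (66.7%), led by S100a8 at 2.34 (SE 0.27). The summed implied level was 191 in young and 600 in aged mice. Of 8 conventional dendritic cell markers, 3 rose (37.5%), led by Itgax at 5.43 (SE 0.18), with a sum of 870 in young and 4257 in aged mice. Without Itgax the sums over the other 7 were 791 and 823, so that the difference rests on 1 gene. Of 9 B and plasma cell markers, 2 of 7 tested rose and 0 fell, a share called (28.6%) not far from the 21.2% of all genes. Cd22 led at 3.10 (SE 0.21), with sums of 278 and 878, or 229 and 453 without Cd22. For plasmacytoid dendritic cells, which make much type I interferon, Il3ra rose by 1.01 (SE 0.31), Ccr9 fell by 1.08 (SE 0.35) and Cox6a2 fell by 0.73 (SE 0.26) among 7 of 8 markers tested, and the sums were 5408 in young and 4884 in aged mice. Most of these sums is Tcf4, a broadly expressed gene, and without it they were 779 and 621.

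The defining genes of the RPE were present, with a summed implied level of 282221 in young and 344987 in aged mice over 10 markers, and all but Best1, at a mean of 69.8, had a mean above 100. Of the 8 tested, 3 rose (37.5%, against 11.3% of all genes tested). Best1 was highest at 0.68 (SE 0.26), and Rgr was the one of the 3 left after centring. Of 9 endothelial markers tested, 2 passed the threshold, a share close to that of all genes tested (21.2%), with Vwf higher by 0.69 (SE 0.21) and Tek lower by 0.44 (SE 0.15), and sums of 25025 in young and 26521 in aged mice, or 21738 and 21228 without Vwf. Of the 10 rod photoreceptor markers, 0 passed the threshold in the DESeq2 comparison, also at an unadjusted p under 0.05, while all 10 values were above 0 with a median of 0.22. In bulk tissue, more cells of a type and more RNA per cell cannot be told apart. The part of these cell types in the values below was not tested.

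Of the 5 signalling and transcription factor genes, 2 rose, and the median log2 fold change of the 5 was 0.32. Irf8, a transcription factor of macrophages and dendritic cells, rose by 1.86 (SE 0.15) and had the lowest adjusted p of all 48 genes, 1.76e-34. Its implied level was 262 in young and 956 in aged mice. Stat2, which codes for a subunit of the type I complex, rose by 0.43 (SE 0.17, adjusted p 0.0432) from 690 to 933. Stat2 was the gene closest to the threshold from inside, and it missed it after centring (adjusted p 0.0956) and without a filter on low genes (adjusted p 0.0605).

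The other 3 interferon regulatory factors of the set did not pass the threshold, whereas Irf5, outside the set, rose by 1.23 (SE 0.17). Irf1, an early target of interferon-gamma, had 0.32 (SE 0.14, adjusted p 0.0814), and Irf9, the DNA-binding subunit of the type I complex, had 0.30 (SE 0.15, adjusted p 0.131). Irf7, which amplifies type I interferon production, had 0.23 (SE 0.19, adjusted p 0.416). The 95% intervals of these factors reached 0.60, 0.59 and 0.59, so a rise of 0.5 was not excluded for any of them at this precision.

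**Figure D2:**
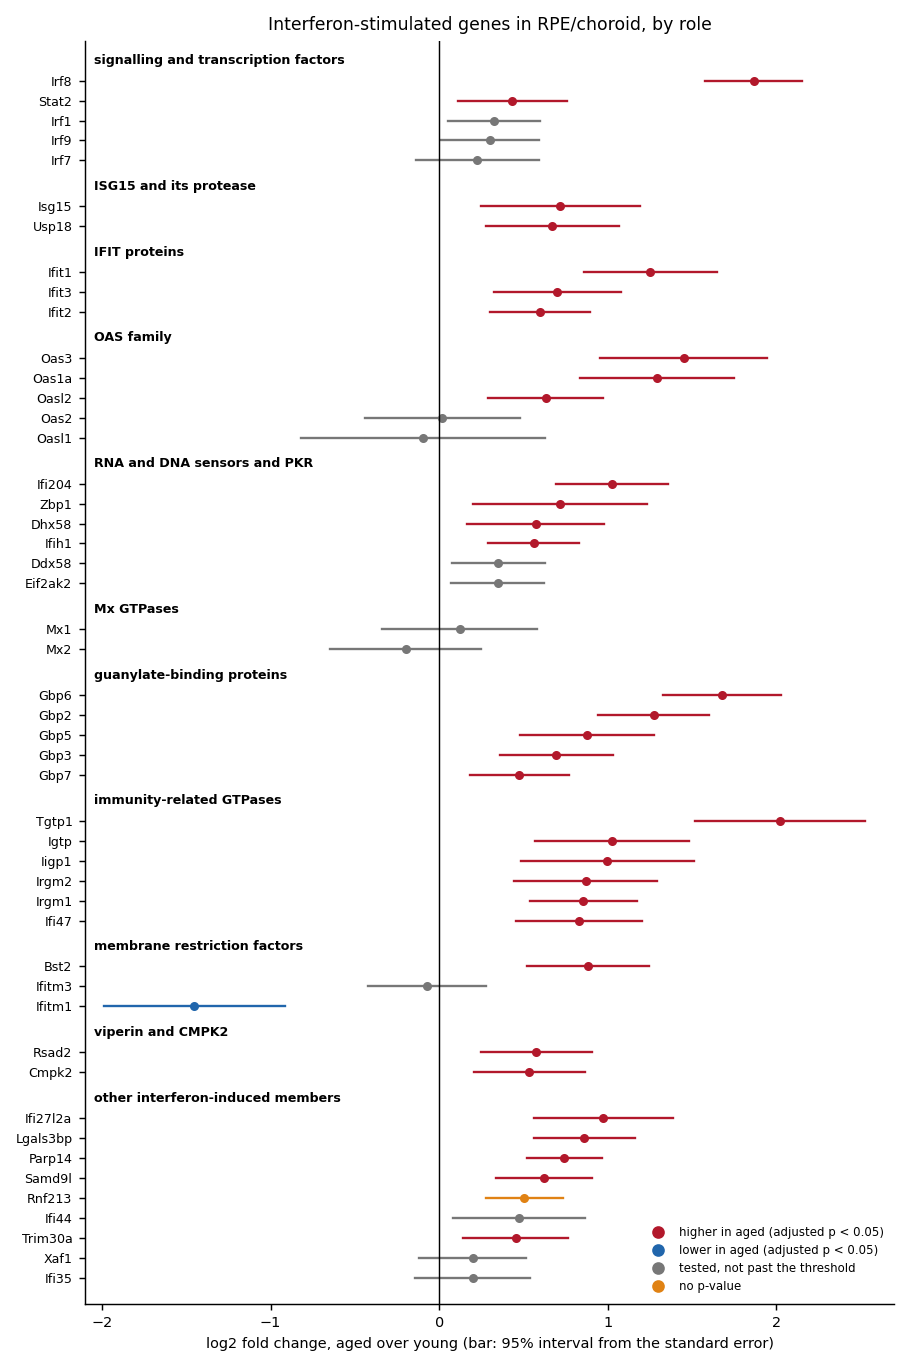
The log2 fold change, aged over young, of each of the 48 genes is shown as a point with its 95% interval as a bar, grouped by what the genes do. All 5 guanylate-binding proteins and all 6 immunity-related GTPases lie to the right of 0 with intervals that do not reach it, whereas Ifitm1 lies at -1.45 and both Mx genes straddle 0.

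Guanylate-binding proteins coat and break open compartments that hold microbes, and all 5 genes of this family rose. Gbp6, on chromosome 5, rose by 1.68 (SE 0.18, adjusted p 6.22e-19), with an implied level of 364 in young and 1164 in aged mice. On chromosome 3, Gbp2 rose by 1.27 (SE 0.17), Gbp5 by 0.88 (SE 0.20), Gbp3 by 0.69 (SE 0.17) and Gbp7 by 0.48 (SE 0.15), and these 4 genes lie side by side between 142493978 and 142638008 (GRCm38). Only a share of 0.257 of the 31-base words of Gbp6 occurs in no other annotated gene, so reads could have been shared with its neighbours.

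Immunity-related GTPases, which mark or strip the vacuoles of intracellular parasites and bacteria, rose in 6 of 6 cases. Tgtp1, on chromosome 11 at 48985327 to 48994172, had the largest rise of the whole set, 2.02 (SE 0.26, adjusted p 1.81e-13), from an implied level of 129 in young to 522 in aged mice. Its near copy Tgtp2 rose by 1.14 (SE 0.27), and because a share of 0.832 of the words of Tgtp1 is also in Tgtp2, how reads were split over both copies is uncertain. Igtp rose by 1.02 (SE 0.23), Iigp1 by 1.00 (SE 0.26), Irgm2 by 0.87 (SE 0.22), Irgm1 by 0.86 (SE 0.16) and Ifi47 by 0.83 (SE 0.19). In GENCODE M21 the spans of Igtp and Irgm2 overlap on the same strand of chromosome 11. Shares of 0.841 and 0.893 of their words occur in no other gene, so most of their sequence can be told apart. Reads from the rest cannot be assigned with certainty. The RefSeq start of Irgm2 used below lies past the end of Igtp.

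The promoters of these genes show what they share in sequence. RefSeq promoters (GRCm38.p6, 250 bases before to 50 after the annotated start) were matched by symbol for 37 of the 48 genes. The other 11 were Usp18, Oas2, Dhx58, Zbp1, Ifi204, Mx1, Mx2, Gbp6, Iigp1, Parp14 and Ifi27l2a. The core of the interferon-stimulated response element was searched as GAAANNGAAA on both strands, overlapping matches included, and that of the gamma-activated site as TTCNNNGAA, which reads the same on both strands. The response element core was found in 21 of the 37 promoters (56.8%) and in 3.99% of the 27025 genes with a promoter entry. The gamma-activated site core was found in 13 (35.1%), against 9.55% of all and 3 of 51 promoters (5.88%) of a further list of interferon-induced genes, and both cores were found in 9, against 0.614% of all. In that further list the response element core was found in 23 of 51 (45.1%). Starts are annotated ones, and a match is a run of letters rather than a shown binding site.

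To let the motifs be compared, the promoters of the 6 genes that rose by at least 1 and hold the response element core are printed, with those of Irgm2, which is arranged like Igtp, of the ubiquitin-like gene Isg15, which has 3 overlapping matches, and of Ifitm1, the one gene that fell and one with no match. Each line is the 120 bases before the RefSeq start, 5′ to 3′ in the direction of the gene, in lower case with both cores in capitals.
Tgtp1, chr11:48992247-48992366, minus strand: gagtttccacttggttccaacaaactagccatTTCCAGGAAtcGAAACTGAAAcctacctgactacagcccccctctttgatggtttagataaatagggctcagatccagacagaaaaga
Igtp, chr11:58199436-58199555, plus strand: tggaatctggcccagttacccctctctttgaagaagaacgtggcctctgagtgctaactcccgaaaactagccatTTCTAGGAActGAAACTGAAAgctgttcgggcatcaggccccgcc
Irgm2, chr11:58214857-58214976, plus strand: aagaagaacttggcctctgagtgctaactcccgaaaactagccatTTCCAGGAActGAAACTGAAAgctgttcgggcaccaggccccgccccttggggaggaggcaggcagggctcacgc
Gbp2, chr3:142620543-142620662, plus strand: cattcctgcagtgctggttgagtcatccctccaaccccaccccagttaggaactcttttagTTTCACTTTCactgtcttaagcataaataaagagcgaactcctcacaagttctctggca
Oas3, chr5:120777660-120777779, minus strand: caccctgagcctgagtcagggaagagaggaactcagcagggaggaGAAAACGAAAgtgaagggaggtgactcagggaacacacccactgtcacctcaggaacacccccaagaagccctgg
Oas1a, chr5:120907526-120907645, minus strand: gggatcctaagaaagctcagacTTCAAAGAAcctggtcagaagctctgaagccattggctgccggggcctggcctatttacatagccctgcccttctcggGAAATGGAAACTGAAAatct
Ifit1, chr19:34640769-34640888, plus strand: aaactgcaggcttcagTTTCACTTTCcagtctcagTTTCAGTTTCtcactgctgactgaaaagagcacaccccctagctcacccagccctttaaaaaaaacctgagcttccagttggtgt
Isg15, chr4:156200819-156200938, minus strand: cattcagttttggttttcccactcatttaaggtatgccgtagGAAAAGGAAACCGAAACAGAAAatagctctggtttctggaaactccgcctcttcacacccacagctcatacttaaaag
Ifitm1, chr7:140967956-140968075, plus strand: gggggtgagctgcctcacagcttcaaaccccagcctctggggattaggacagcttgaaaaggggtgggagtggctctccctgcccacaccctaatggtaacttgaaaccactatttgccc

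In Tgtp1, Igtp and Irgm2, the gamma-activated site core is followed by a response element core whose first base lies 11 bases after its own first base. That arrangement, looked for after it was seen in these promoters and on either strand, occurs in 5 of the 27025 genes with a promoter entry. The other genes are Tgtp2 and Gm12185, both on chromosome 11 as well, and Gm12185 rose by 1.14 (adjusted p 0.00102). The 5 genes thus all rose, but they are not independent of each other. The printed promoters of Tgtp1, Igtp and Irgm2 share the same bases just before the site core. Tgtp1 and Tgtp2 also share most of their words, and the GENCODE spans of Igtp and Irgm2 overlap. How Gm12185 relates to the others was not examined.

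The direction of change can be set beside the motifs. Of the 21 genes with a response element core, 18 rose and 3 did not pass the threshold, with a median log2 fold change of 0.72. Of the 16 genes without one in this window, 7 rose, 1 fell, 7 did not pass and 1 had no p-value, with a median of 0.49. The gamma-activated site core had a match in 36% of the 25 genes that rose and in 36.4% of the 11 that fell or did not pass. Neither difference was tested, and many of these genes are neighbours or family members. Of the 16 genes without a response element core, Irf8, Irf1, Ifit2 and Ifi35 hold the gamma-activated site core, with 2 matches in Irf8 and 1 in each of the others. In Ddx58, Eif2ak2, Ifih1 and Ifitm3 the response element core lies after the start, between 3 and 33 bases into the transcript.

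**Figure D3:**
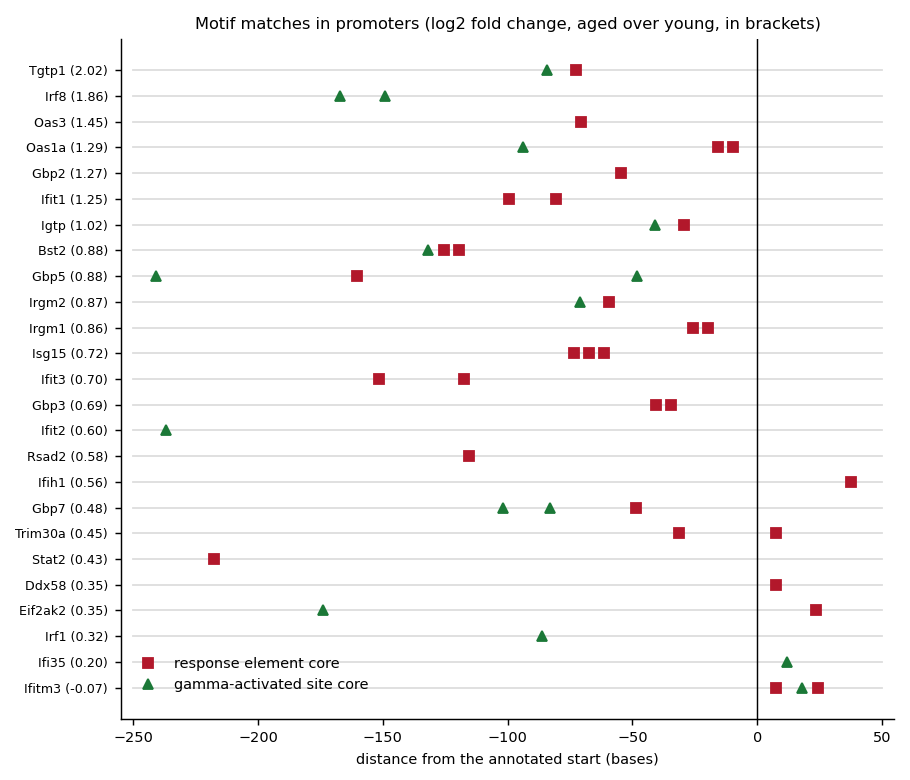
Matches to the response element core (red squares) and to the gamma-activated site core (green triangles) are placed by their distance in bases from the annotated start, for the genes with at least 1 match, ordered by log2 fold change. Most matches lie before the start, and in Tgtp1, Igtp and Irgm2 a triangle is followed by a square at the same short distance.

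IFIT proteins bind foreign RNA at its end, and all 3 rose. Ifit1 rose by 1.25 (SE 0.20) from an implied level of 604 to 1440, Ifit3 by 0.70 (SE 0.19) and Ifit2 by 0.60 (SE 0.15). They lie between 34550694 and 34650009 on chromosome 19. A share of 0.618 of the words of Ifit3 also occurs in its near copy Ifit3b, so the value of Ifit3 may include reads of the copy, which had 0.46 (SE 0.20) and no p-value.

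The OAS family makes a messenger that activates RNase L, and it was split. Oas3 rose by 1.45 (SE 0.25) from an implied level of 46.3 in young to 126 in aged mice, and Oas1a rose by 1.29 (SE 0.23). Oasl2, an OAS-like relative, rose by 0.63 (SE 0.17). Oas2, at the same locus on chromosome 5 as Oas3 and Oas1a, had 0.02 (SE 0.23), and Oasl1, which dampens translation of Irf7, had -0.09 (SE 0.37). The sign of Oas2 turned to -0.046 after centring. A share of 0.687 of the words of Oas1a is also in Oas1g, which had 0.33 (SE 0.31, adjusted p 0.50).

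Isg15, the ubiquitin-like modifier, rose by 0.72 (SE 0.24), and Usp18, the protease that removes it and that also blocks the type I receptor, rose by 0.67 (SE 0.20). The neighbours Rsad2 (viperin, which makes a chain-terminating nucleotide) and Cmpk2 (a nucleotide kinase) on chromosome 12 rose by 0.58 (SE 0.17) and 0.54 (SE 0.17). Neither Mx gene passed the threshold. Mx1 had 0.12 (SE 0.24) and Mx2 had -0.20 (SE 0.23), at implied levels of 102 and 167 in young and 111 and 146 in aged mice. C57BL/6 mice are known to carry defective alleles of these dynamin-like antiviral GTPases.

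Among sensors of foreign nucleic acid, 4 of 6 rose. Ifi204, a DNA sensor of the myeloid lineage, rose by 1.03 (SE 0.17) from an implied level of 234 to 477. Zbp1, which triggers cell death on binding Z-form nucleic acid, rose by 0.72 (SE 0.26), Dhx58 (LGP2) by 0.57 (SE 0.21) and Ifih1 (MDA5) by 0.56 (SE 0.14). Ddx58 (RIG-I) was the gene closest to the threshold from outside, with 0.35 (SE 0.14, adjusted p 0.0576), and the kinase gene Eif2ak2 (PKR) followed with 0.35 (SE 0.14, adjusted p 0.0585). Zbp1 and Dhx58 missed the threshold after centring, with adjusted p values of 0.0592 and 0.0619, which left 2 of these 6 genes.

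The membrane factors went apart. Bst2 (tetherin), which holds budding virus at the cell surface, rose by 0.88 (SE 0.18) from an implied level of 1205 to 2222. Ifitm1 fell by 1.45 (SE 0.27, adjusted p 2.52e-06), from 484 in young to 177 in aged mice, and was the only one of the 48 genes that fell. Ifitm3, which blocks entry of virus through endosomes, had -0.07 (SE 0.18, adjusted p 0.824). Ifitm1 is also known from the embryo, where it marks germ cell precursors and mesoderm.

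The neighbours of Ifitm1 on chromosome 7 were looked up after its value had been seen. Ifitm2 had -0.08 (SE 0.13) and Ifitm6 had 0.19 (SE 0.40), and neither passed the threshold. Ifitm5, a gene of bone-forming cells, had -0.92 (SE 0.42, adjusted p 0.104) at a mean normalized count of 16.9. A share of 0.884 of the words of Ifitm1 occurs in no other gene.

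Of the remaining 9 genes, 5 rose. Ifi27l2a, a small mitochondrial or membrane protein of uncertain function, rose by 0.97 (SE 0.21), and Lgals3bp, a secreted glycoprotein, rose by 0.86 (SE 0.15). Parp14, an ADP-ribosyltransferase, rose by 0.74 (SE 0.11), Samd9l, a brake on translation, by 0.62 (SE 0.14) and Trim30a, a regulator of inflammatory signalling, by 0.45 (SE 0.16). Trim30a missed the threshold after centring (adjusted p 0.0627). Ifi44 had 0.47 (SE 0.20, adjusted p 0.0729), Xaf1, a pro-apoptotic factor, had 0.20 (SE 0.16) and Ifi35 had 0.20 (SE 0.17).

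Rnf213, a giant ubiquitin ligase known for its role in moyamoya disease of the brain arteries, was the gene without a p-value, which DESeq2 can leave out when 1 library lies far from the others. Its log2 fold change was 0.50 (SE 0.12), and a Wald p worked out from these values would give an adjusted p of 0.000202. Because that p uses the fold change and SE as deposited, it would carry over the effect of any such library.

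Levels can be compared between genes only per length. Per kilobase of the longest coding transcript, Bst2 had the highest mean of the set, with an implied level of 1522 in young and 2806 in aged mice, followed by Ifit3 with 1593 and 2587. Ifitm3 had 1591 and 1514, Lgals3bp had 789 and 1434, and Ifi27l2a had 584 and 1146. These 5 genes held 42.7% of the summed level per length of all 48. Oas3, with the lowest mean, had 9.80 and 26.8. The summed level over the 48 genes was 1.55 times as high in aged as in young mice.

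**Figure D4:**
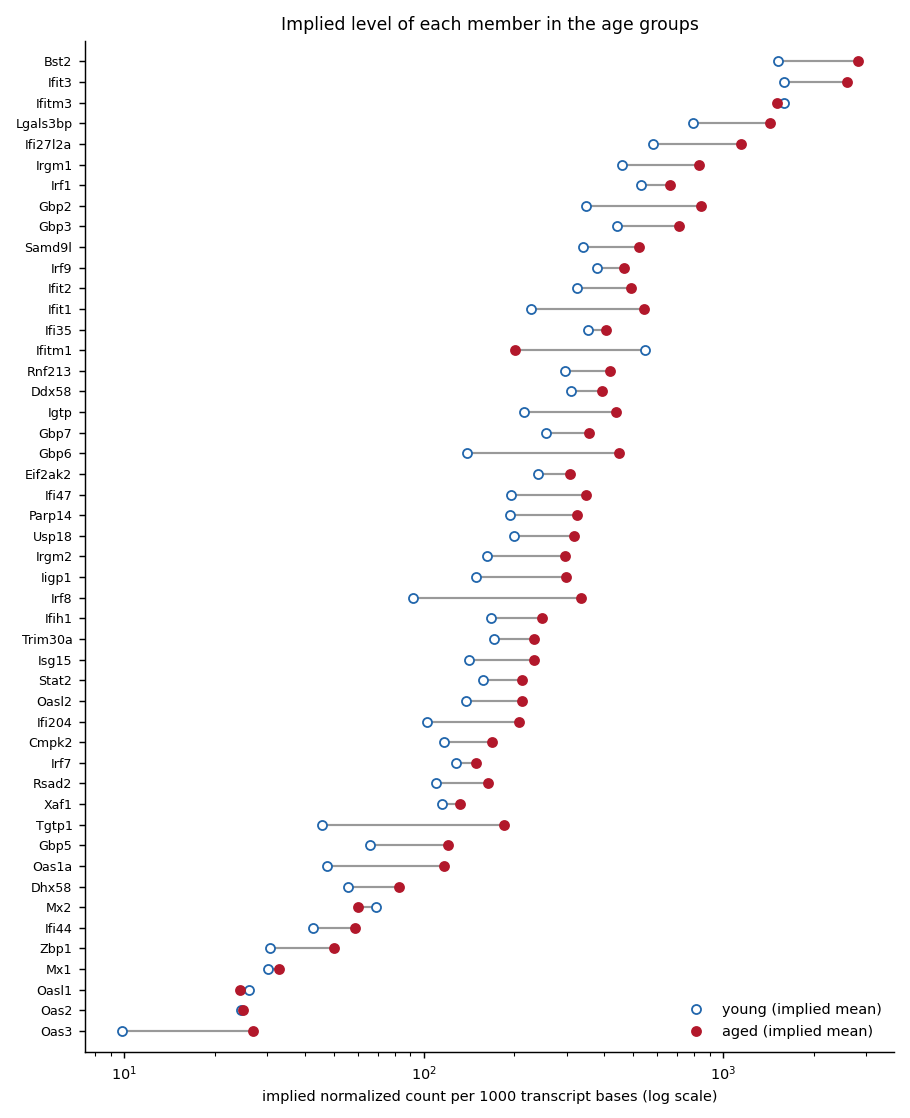
The implied normalized count per kilobase of transcript (log scale) is shown for young (open circles) and aged mice (filled circles), with the genes ordered by their mean. Filled circles lie to the right of open ones for nearly every gene, with Ifitm1 as the widest gap in the other direction, and the levels span from 9.80 for Oas3 in young to 2806 for Bst2 in aged mice.

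Few interferon genes could be tested. Of 21 ligand genes, 12 were listed at a mean of 0, 8 were too low for an adjusted p, and only Ifnk, a keratinocyte interferon, was tested, with -0.83 (SE 0.45, adjusted p 0.189) at a mean of 10.6. Ifng had 0.85 (SE 0.40) at a mean of 2.12, and Ifnb1 had 0.35 (SE 0.29) at a mean of 0.751. The lambda interferons Ifnl2 and Ifnl3 had 0.86 (SE 0.40) and 0.91 (SE 0.41), at means of 2.13 and 2.44. A listed 0 need not mean absence, since the widely expressed Trex1, a brake on the pathway, was listed at 0 too. Ifng, Ifnb1, Ifnl2 and Ifnl3 had no adjusted p, and at such means a change could not be judged.

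Of 6 receptor genes, 3 rose, against 11.3% of all genes tested. Ifnar2 rose by 0.40 (SE 0.12), Ifngr2 by 0.38 (SE 0.13) and Il10rb, a shared chain of the lambda receptor, by 0.40 (SE 0.14). Ifnar1 had 0.07 (SE 0.12), Ifngr1 had 0.32 (SE 0.14, adjusted p 0.0816) and Ifnlr1 had 0.40 (SE 0.25). After centring, Ifnar2 was the one receptor gene left past the threshold, with an adjusted p of 0.0367.

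Of 7 transducer genes, 4 rose, against 11.3% of all genes tested. Among them, Stat3, the main transducer of interleukin 6, rose by 0.73 (SE 0.11), Jak1 by 0.46 (SE 0.11) and Stat5a by 0.44 (SE 0.15). Jak2 had 0.15 (SE 0.11), Tyk2 had 0.09 (SE 0.14) and Stat5b had 0.29 (SE 0.14, adjusted p 0.116). Stat5a missed the threshold after centring, with an adjusted p of 0.0567.

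Genes that sense nucleic acids and start interferon production rose in 7 of 16 cases, against 11.3% of all genes tested. Tlr8 rose by 3.47 (SE 0.17), Tlr7 by 2.76 (SE 0.16) and Aim2 by 1.29 (SE 0.21). The first and second are endosomal RNA receptors that are prominent in macrophages and dendritic cells, whose marker values are given above. Brakes on the pathway rose in 5 of 15 genes tested, led by the phosphatase genes Ptpn6 at 1.44 (SE 0.17) and Ptpn1 at 0.99 (SE 0.13) and by Socs3 at 0.73 (SE 0.16). None of the genes on either list fell, against 9.92% of all genes tested.

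A further list of 72 interferon-induced genes outside the set included more rises than falls. Of 67 tested, 35 rose (52.2%) and 0 fell, against 11.3% and 9.92% of all genes tested, with a median log2 fold change of 0.53. The largest rises were those of Gbp10 at 2.25 (SE 0.41) and of the chemokines Cxcl9 at 1.88 (SE 0.37) and Ccl5 at 1.81 (SE 0.42). Cxcl9 and Ccl5 attract T cells. Over all 6 pathway lists, 54 of 112 genes tested rose (48.2%) and 0 fell, against 11.3% and 9.92% of all genes tested. Of the 112, 67 had an unadjusted p under 0.05 (59.8%), as had 32.6% of all genes tested.

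**Figure D5:**
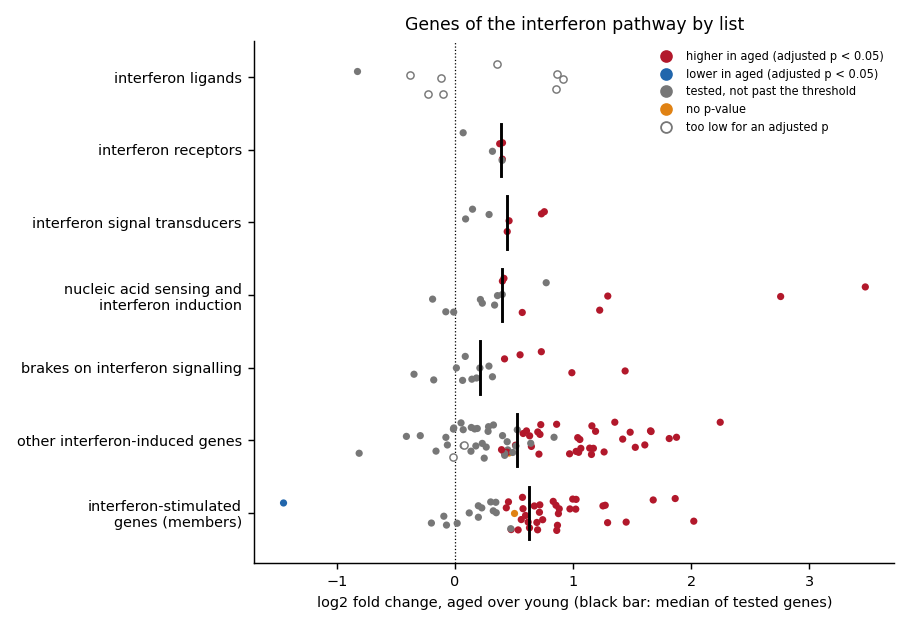
Each point is 1 gene of an interferon pathway list, placed by its log2 fold change, aged over young, and coloured by call, and the black bar is the median of the genes tested where at least 2 were. Ligands are mostly open circles, too low for an adjusted p, receptors and transducers have medians of 0.39 and 0.44, and the 48 genes have a median of 0.63.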

How the data were processed

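Reads were trimmed by the authors with BBDuk, aligned with STAR to Ensembl transcripts (GRCm38), quantified with Sailfish, scaled by total count and compared with DESeq2. The deposited table holds, for each gene, a mean normalized signal over the 6 libraries (a mean of normalized counts). The log2 fold change and its SE were deposited by the authors, as were the Wald score, which is their ratio, and the p-value and adjusted p-value. It held 0 columns that name a sample, and its columns are the authors' own comparison, so depth per library is unknown here, no test per gene was refitted, and replicate spread was not seen directly. The sources used here do not say that fold changes were shrunken, but the values show it: the largest SE was 0.46 over all genes, and genes with almost no counts had small ones (Ly6g, mean 0.296, SE 0.19).

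The sign was turned so that positive is higher in aged mice. Genes tested are those with an adjusted p. Sums without 1 marker were added after seeing the data. Implied levels solve the mean and the fold change for 3 against 3 libraries. Intervals of 95% are the fold change with its SE under a normal distribution. Wald p and Benjamini-Hochberg adjustment were recomputed for the alternatives (tested on simulated data; scipy 1.17.1, pandas 2.3.3, Python 3.11.15). Recomputing the deposited p-value and adjusted p gave differences of at most 0.449% and 0.572%. Transcript lengths, positions and 31-base words came from GENCODE M21, and promoters from RefSeq. Of 233 listed pathway and marker entries, 15 were found under an older symbol and 2 were not found.

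The 48 genes and all lists were chosen with earlier results of these data known, so no list carries a test of its own. All 48 genes were named. Full statistics went to the 3 largest rises, the falls, the lowest adjusted p, the transcription factors and the genes nearest to the threshold, and from each pathway list to up to 3 of its largest changes, with each receptor gene and the transducer genes but 1, and from each marker list to its largest rise and fall. Near copies, Ifitm neighbours, Gm12185, Cox6a2, Lyz2, Rgr, Thy1, Tcf4, Irf5, Trex1, Ifng, Ifnb1, Ifnl2 and Ifnl3 were named after their values were seen. A few values are not reported here.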

Additional observations from a re-analysis of the deposited data

How the results depend on the processing

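Of the 48 genes, 34 differed (33 higher, 1 lower). An adjusted p under 0.01 left 27, no filter on low genes left 33, a minimum mean of 30 left 34, and centring on abundant genes left 30. With a Wald p for Rnf213, which cannot allow for an outlying library, the number was 35. Among genes with at least 0.8 of their words to themselves 29 of 41 tested differed, and without guanylate-binding proteins and immunity-related GTPases 23 of 36. A minimum size of 1 on the log2 scale left 10 (9 higher, 1 lower), which is stricter by construction. The pathway lists gave 54 genes, between 43 and 52 under the other settings except that fold-change minimum, with 26. Counting only symbols as listed, a setting chosen after seeing the data, gave 52.

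For single genes, centring turned 1 sign (Oas2, to -0.046) and ended 4 calls, those of Dhx58, Stat2, Trim30a and Zbp1. Leaving the last base of the response element core free gave 23 promoters in place of 21. No paired analysis was possible because only summaries over all libraries were analysed here. Fits without 1 library, the replicate block, other normalizations and a pseudocount were therefore not run. The SE of each gene sets what could be seen, and 10 of the 13 genes that did not pass had an interval that includes a rise of 0.5.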
